A study of Mus musculus with 24 samples.

Results

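Infarction was compared with a sham operation in the hearts of nontransgenic (Ntg) FVB/N mice, the reference genotype of a study of cardiac PI3K (phosphoinositide 3-kinase) activity. The 8 arrays were chosen by their labels: Ntg MI 140, 1127, 1174 and 1190 and Ntg sham 415, 416, 1184 and 1185, out of 24 Affymetrix arrays. The other 16 arrays are MI and sham hearts of mice with a dominant negative PI3K transgene (dnPI3K) or a constitutively active PI3K transgene (caPI3K). Ntg mice carried neither transgene. Mice were operated on at 4 months of age, with myocardial infarction (MI) or sham surgery, and hearts were taken 8 weeks later. Whole hearts were homogenized, so the infarct scar, the border and the remote muscle are in 1 extract, and the share of each is unknown. No source used here gives the sex of the mice or the size of the infarcts. Nothing in the labels ties each array to an animal of its own, so the tests compare the spread among arrays, which may in part be technical.

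After an infarct the dead muscle is replaced by a scar. Fibroblasts become activated and lay down fibrillar collagens, proteoglycans and adhesive matrix proteins, and enzymes outside the cell trim and crosslink that collagen. The surviving muscle is stretched and overloaded, and in the mouse it is known to raise natriuretic peptides and fetal muscle genes and to lower genes for burning fatty acids. At 8 weeks in the mouse the scar is formed and the acute inflammation has passed.

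Values are log2(signal + 11.2), where signal is the intensity of a gene's brightest probe set, and a change is the mean of the 4 MI arrays minus the mean of the 4 sham arrays on that scale. Folds are taken on this scale too and understate the change of dim genes. Where a gene had several kept probe sets, they disagreed in the sign of their change for *Fn1*, *Ccn1*, *Thra*, *Fbln2*, *Ift81*, *Ttll1*, *Cpeb3*, *Acta2*, *Kcnj3*, *Slc8a1*, *Trdn*, *Ccnd2*, *Igfbp5*, *Igfbp7*, *Itgav* and *Sparc* among the genes described here. Array values are listed in the order sham 415, 416, 1184 and 1185 and then MI 140, 1127, 1174 and 1190. A gene is called higher or lower when its adjusted p is below 0.05, from limma with Benjamini-Hochberg adjustment over the 14763 genes tested. A change is followed by the standard error of the fit (SE), and a group mean by the standard deviation of its arrays (SD). The SE and the adjusted p rest on a spread pooled over all 24 arrays, the transgenic ones included. For a gene that varies widely among the Ntg arrays, the SE can be smaller than those arrays alone would give.

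Heart muscle markers were bright on every array. All 6 cardiomyocyte markers were above the 40th percentile of signal on all 8 arrays, and their summed signal ran from 316000 to 423000 on sham and from 304000 to 328000 on MI arrays. The 4 atrial markers summed to 1560 to 7830 on sham and 7280 to 14500 on MI arrays. Of the skeletal muscle markers 3 of 7 were measured and summed to 98.3 to 363 on sham and 138 to 247 on MI arrays. Lung markers, 2 of 3 measured, summed to 102 to 279 and 116 to 248. In extracts of whole tissue, fewer cells of a type and less RNA per cell cannot be told apart. The bright end of the signal range differed between arrays: the 99th percentile of signal was 19641 and 20017 on shams 415 and 416 and 16733 to 17508 on the other 6 arrays. Array numbers fall into a range under 1000 (shams 415 and 416, MI 140) and a range of 1000 and above, and the labels do not say what the numbers stand for.

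Sham 1185 stood apart from the other shams, in the direction of the infarcted hearts. Over all genes it correlated at 0.956 to 0.958 with the 4 MI arrays and at 0.947 to 0.951 with the other shams, which correlated at 0.953 to 0.956 with each other. The dnPI3K and caPI3K arrays share no array with the Ntg comparison, so their changes after MI use no Ntg value. The spread behind their calls was estimated from all 24 arrays, sham 1185 included. Those calls gave a gene set. It held 86 genes called higher after MI in both transgenic comparisons. Sham 1185 exceeded the mean of the other 3 shams for 84 of these 86 genes, by a median of 0.602. The same median was 0.696 to 0.909 on the 4 MI arrays and -0.0666 to 0.052 when each of the other shams was set against the remaining pair. For the 17 genes called lower in both transgenic comparisons, the median was -0.259 on sham 1185 and -0.395 to -0.164 on the MI arrays. Sham 1185 therefore lies beyond the spread of the other 3 shams on infarct-responsive genes, and results below are given with and without it. A called gene given with 1 value was called without sham 1185 too. Its label was kept, and the cause was not tested.

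With all 8 arrays, 115 of 14763 genes were called, which is 0.779 percent. Of these 101 were higher after MI (0.684 percent of genes tested) and 14 lower (0.0948 percent). Changes of the higher genes ran from 0.33 to 4.12 with a median of 0.892, against a median of -0.00475 over all genes, and 34 changed at least 2-fold. Among the lower genes 2 changed at least 2-fold. Without sham 1185, 671 genes were called (4.55 percent), 417 higher (2.82 percent) and 254 lower (1.72 percent). The 115 genes were all among these 671, and 556 were called only without sham 1185. The split moved from 87.8 percent higher with all arrays to 62.1 percent higher without that array. Leaving out any of the other 7 arrays lowered the count, to 35, 25 and 32 without shams 415, 416 and 1184 and to 44, 40, 56 and 75 without MI 140, 1127, 1174 and 1190. Array values did not overlap between the groups for 328 genes that were higher after MI (2.22 percent) and 369 that were lower (2.5 percent), and 67 of the 115 called genes were among them. Within the array numbers of 1000 and above (2 shams, 3 MI arrays) 1 gene was called, and 136 were called there without sham 1185. Within the numbers under 1000 (2 shams, 1 MI array) 195 were called, with the lone MI array assumed to vary like the other groups. A fit with a term for the number range called 102. A fit of only the Ntg arrays, without the spread of the transgenic arrays, called 10, and 437 without sham 1185.

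**Figure D1:**
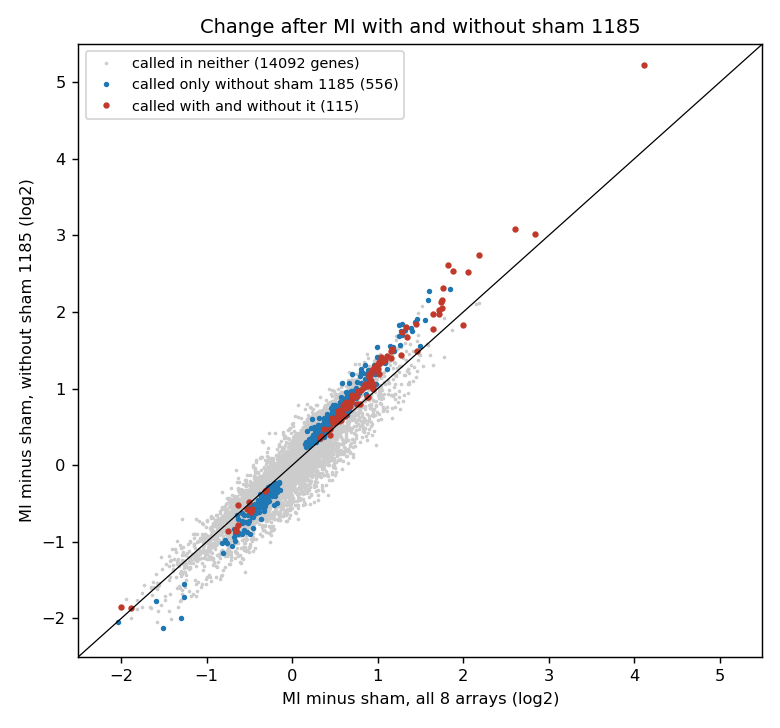
Change after MI of each of the 14763 genes on all 8 arrays (x axis, log2) against the change without sham 1185 (y axis, log2), with the line of equality. The 115 genes called with and without that array are red and the 556 called only without it blue; *Mfap4*, at the top right, lies at 4.12 and 5.22.

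The position of sham 1185 can be read gene by gene. For 45 of the 101 genes called higher, sham 1185 reached or passed the lowest MI array; for 43 it lay above the other shams and below every MI array; and for 13 it was not above the other shams. Over the 101 genes its median position was 72.5 percent of the way from the mean of the other shams to the MI mean. *Ccn2*, *Fgl2* and *Anxa3* are genes on which sham 1185 stayed near the other shams, with a difference from their mean of 0.08, 0.08 and 0.18.

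A core of 21 genes was called in each of the 8 fits that left out 1 array, and all 21 were higher after MI. Each of these fits kept the 16 transgenic arrays in its estimate of the spread. *Fmod* encodes fibromodulin, a small proteoglycan that binds collagen fibrils. It read 9.33, 9.37, 9.50 and 10.06 on the sham arrays and 10.77, 10.71, 10.86 and 11.04 on the MI arrays, a change of 1.28 ± 0.15 (SE, adjusted p = 8.62e-05) and 1.44 without sham 1185 (adjusted p = 2.55e-07). Every MI array was above every sham, with sham 1185 between the other shams and the MI arrays. *Comp*, cartilage oligomeric matrix protein, read 9.35, 9.24, 9.65 and 10.63 on the sham arrays and 11.61, 11.65, 11.08 and 11.54 on the MI arrays. It rose by 1.75 ± 0.22 (SE, adjusted p = 1.97e-04), or 3.37-fold, and by 2.05 without sham 1185 (adjusted p = 1.09e-07). The groups did not overlap, and sham 1185 was again the highest sham. *Ecrg4*, which encodes a secreted peptide precursor, read 9.80, 8.97, 9.63 and 9.99 on the sham arrays and 11.65, 11.09, 11.14 and 11.10 on the MI arrays, and rose by 1.65 ± 0.25 (SE, adjusted p = 0.00182). MI 140 was the highest array, and the lowest MI array lay 1.10 above the highest sham. *Fgl2*, a fibrinogen-like protein, read 10.27, 10.59, 10.34 and 10.48 on the sham arrays and 11.18, 10.92, 11.09 and 10.96 on the MI arrays, and rose by 0.62 ± 0.10 (SE, adjusted p = 0.00324). Here sham 416, not sham 1185, was the highest sham. *Dio2*, the deiodinase that converts the thyroid prohormone to its active form inside cells, read 6.92, 7.12, 6.20 and 8.36 on the sham arrays and 8.74, 9.05, 9.42 and 8.38 on the MI arrays, and rose by 1.75 ± 0.32 (SE, adjusted p = 0.00585) and by 2.15 without sham 1185 (adjusted p = 1.76e-05). For this gene MI 1190 and sham 1185 differed by only 0.01. The largest change in the whole comparison was that of *Mfap4*, a microfibril-associated protein, which read 4.51, 4.95, 4.94 and 9.20 on the sham arrays and 10.37, 9.98, 9.87 and 9.86 on the MI arrays. It rose by 4.12 ± 0.71 (SE, adjusted p = 0.0047), or 17.4-fold, and by 5.22 without sham 1185 (adjusted p = 3.77e-07); 3 shams were dim, and sham 1185 was within 0.65 of the lowest MI array. The others of the core are *Ckap4* (0.91 ± 0.14), *Ccn2*, *Ccn5*, *Mfap5*, *Abi3bp* (0.76 ± 0.13), *Krt18*, *Anxa3* (0.52 ± 0.09), *Postn*, *Frzb*, *Sfrp2*, *Islr*, *Tnmd* (1.65 ± 0.29), *Col5a2*, *Fstl1* and *Pqlc3* (0.94 ± 0.17). *Tnmd* and *Pqlc3* were named after their values had been seen.

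**Figure D2:**
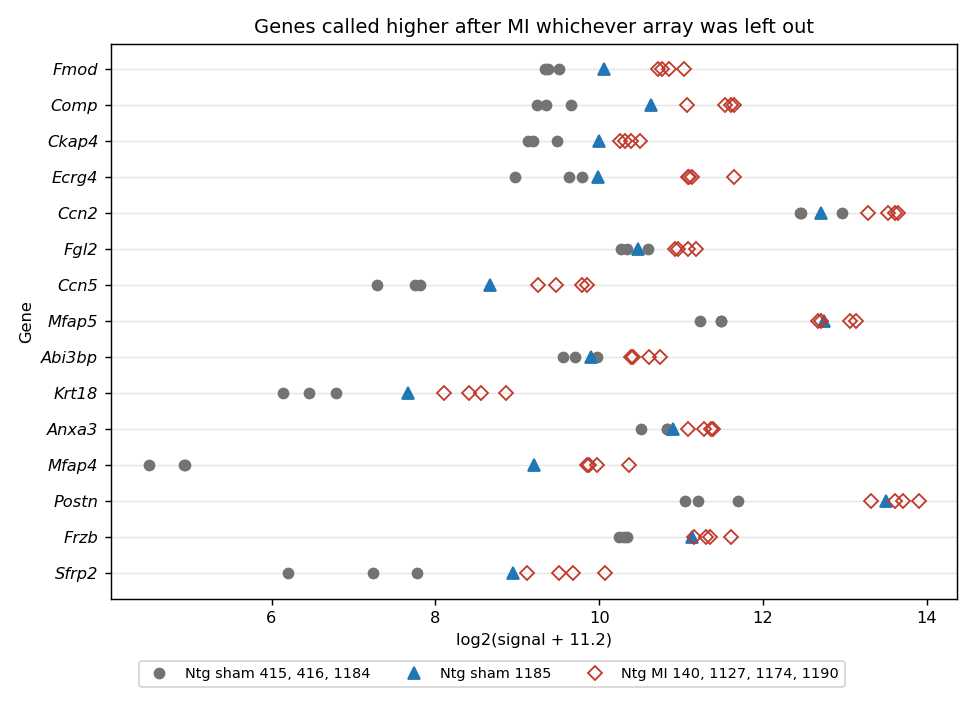
Array values, log2(signal + 11.2), of the 15 genes of smallest p among the 21 that were called in each of the 8 fits leaving out 1 array. Grey circles are shams 415, 416 and 1184, blue triangles sham 1185, and open red diamonds the 4 MI arrays; sham 1185 lies beside the MI arrays for *Mfap5*, *Postn* and *Frzb* and beside the other shams for *Ccn2*, *Fgl2* and *Abi3bp*.

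The start-site windows of this core were searched for letters bound by factors known in heart and fibroblasts, since the genes moved together. RefSeq promoter windows (GRCm38.p6, 250 bases before to 50 after a start) were matched to 77 of the 101 called-higher genes and 11820 of the 14763 tested. The windows searched may not be all that RefSeq holds, so a gene without a window here need not lack one. The shares below hold only for the genes searched. The words were TGANTCA for AP-1, GGAATG for the MCAT element of TEAD factors, TCAAGGTCA for the ERR element, AGATAA for GATA factors and the CArG box of serum response factor, on both strands, and no word contains another. AP-1 was found for 11.7 percent of called-higher genes (9 of 77) and 6.98 percent of all genes. MCAT was found for 16.9 percent (13 of 77) and 14.9 percent, GATA for 7.79 and 8.72 percent, and CArG for 1.3 and 1.54 percent. The ERR element was in none of the 77 and in 0.355 percent of all genes. For genes called higher without sham 1185, AP-1 was found for 7.23 percent (23 of 318), near the share of all genes. MCAT was found for 18.6 percent of that set, GATA for 6.6, CArG for 1.57 and the ERR element for none. No test was made, and a match shows only that the letters are there. Among the core genes, the windows of *Ckap4*, *Krt18*, *Postn*, *Frzb*, *Sfrp2*, *Islr*, *Tnmd*, *Fstl1* and *Pqlc3* held no match. *Comp*, *Ccn2*, *Ccn5*, *Mfap4*, *Mfap5*, *Abi3bp*, *Anxa3* and *Col5a2* had no window in the search. The windows below are those of the core genes that hold a match, which is in capitals: a GATA word in Fmod at chr1:134037004-134037303 (plus strand), a reverse-strand MCAT word in Ecrg4 at chr1:43730352-43730651 (plus strand), an AP-1 word in Fgl2 at chr5:21372423-21372722 (plus strand) and an MCAT word in Dio2 at chr12:90738989-90739288 (minus strand). Each is written 5′ to 3′ along the gene.
Fmod: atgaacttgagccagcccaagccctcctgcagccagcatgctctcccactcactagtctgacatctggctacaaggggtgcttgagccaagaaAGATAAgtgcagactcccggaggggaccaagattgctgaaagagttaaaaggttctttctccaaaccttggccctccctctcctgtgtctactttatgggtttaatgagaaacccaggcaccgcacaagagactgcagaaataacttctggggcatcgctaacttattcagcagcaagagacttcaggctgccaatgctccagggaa
Ecrg4: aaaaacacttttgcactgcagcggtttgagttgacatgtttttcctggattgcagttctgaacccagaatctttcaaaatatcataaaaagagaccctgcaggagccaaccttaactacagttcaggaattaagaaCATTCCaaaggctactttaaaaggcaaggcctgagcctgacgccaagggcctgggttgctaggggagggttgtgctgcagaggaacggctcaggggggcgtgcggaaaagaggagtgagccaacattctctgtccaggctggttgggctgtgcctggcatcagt
Fgl2: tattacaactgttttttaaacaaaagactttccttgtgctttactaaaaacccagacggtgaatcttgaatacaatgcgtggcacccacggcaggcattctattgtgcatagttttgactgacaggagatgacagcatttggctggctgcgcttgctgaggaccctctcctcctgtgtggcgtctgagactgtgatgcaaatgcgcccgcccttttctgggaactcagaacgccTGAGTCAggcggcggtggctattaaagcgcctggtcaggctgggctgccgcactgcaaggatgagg
Dio2: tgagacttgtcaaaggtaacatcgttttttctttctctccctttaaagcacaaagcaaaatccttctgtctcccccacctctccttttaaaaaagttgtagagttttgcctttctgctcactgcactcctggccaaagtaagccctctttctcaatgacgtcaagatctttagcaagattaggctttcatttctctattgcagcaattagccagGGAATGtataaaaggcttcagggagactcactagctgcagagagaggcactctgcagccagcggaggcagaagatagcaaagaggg

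Genes of the extracellular matrix made up 30 of the 101 higher genes. The 7 matrix lists together (collagens, crosslinking enzymes, proteoglycans, elastic fibres, matricellular proteins, the CCN family, and metalloproteinases with their inhibitors) hold 93 measured genes, of which 30 were called higher and 0 lower. Without sham 1185, 51 were higher and 0 lower. These 30 are 29.7 percent of the genes called higher. The median change was 0.588 with all arrays and 0.744 without sham 1185, and 87 of the 93 changes were above 0. The median of these genes, each set against its own mean over the 8 arrays, was -0.475 to -0.424 on shams 415, 416 and 1184, 0.219 on sham 1185 and 0.184 to 0.373 on the MI arrays. Sham 1185 thus lay inside the range of the MI arrays on the matrix genes as a whole. Within array numbers of 1000 and above the median was 0.39, with 0 called, and 0.674 without sham 1185, with 29 called.

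Among the collagens 8 of 19 measured members were called higher, and 14 without sham 1185; none was lower, and the median change was 0.773. *Col1a1* and *Col1a2* encode the chains of type I collagen, the main fibre of scar. *Col1a2* read 11.74, 11.91, 11.76 and 13.06 on the sham arrays and 13.20, 12.998, 13.15 and 12.86 on the MI arrays, and rose by 0.93 ± 0.20 (SE, adjusted p = 0.0209) and by 1.25 without sham 1185 (adjusted p = 3.89e-06). Sham 1185 was above 2 of the MI arrays, and shams 415, 416 and 1184 lay within 0.16 of each other. *Col1a1* read 9.16, 8.82, 7.68 and 10.33 on the sham arrays and 10.40, 10.12, 10.41 and 10.06 on the MI arrays; its change of 1.25 ± 0.34 (SE, adjusted p = 0.089) missed the threshold and was 1.69 without sham 1185 (adjusted p = 7.80e-04). *Col3a1*, the type III chain found beside type I in scar, read 11.99, 12.53, 12.08 and 13.47 on the sham arrays and 13.78, 13.58, 13.99 and 13.15 on the MI arrays, and rose by 1.11 ± 0.25 (SE, adjusted p = 0.0291). MI 1190 was the lowest MI array, below sham 1185. *Col5a2*, which encodes a chain of the type V collagen that starts fibrils, rose by 1.08 ± 0.19 (SE, adjusted p = 0.00531) and is in the core. *Col8a1* rose by 1.17 ± 0.22 (SE, adjusted p = 0.00811), *Col6a1* by 0.77 ± 0.15 (SE, adjusted p = 0.00909) and *Col12a1* by 1.45 ± 0.29 (SE, adjusted p = 0.0142); they encode a short-chain network collagen, a beaded filament collagen and a fibril-associated collagen. *Col4a1*, of the basement membrane, rose by 0.70 ± 0.16 (SE, adjusted p = 0.0291) and *Col14a1*, another fibril-associated collagen, by 0.92 ± 0.20 (SE, adjusted p = 0.0248). For all of these sham 1185 reached into the range of the MI arrays.

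Of the 13 measured genes that process and crosslink collagen, 5 were called higher and 7 without sham 1185. *Loxl1*, a lysyl oxidase relative best known for elastin, read 10.19, 10.03, 10.03 and 11.05 on the sham arrays and 11.34, 11.48, 11.53 and 10.99 on the MI arrays, and rose by 1.01 ± 0.18 (SE, adjusted p = 0.00603). *Loxl3*, of the same family, rose by 0.68 ± 0.16 (SE, adjusted p = 0.0365), and its groups did not overlap. *Lox* itself read 7.37, 7.39, 7.73 and 7.81 on the sham arrays and 8.60, 8.89, 8.59 and 8.13 on the MI arrays; the groups did not overlap, and the change of 0.98 ± 0.25 (SE, adjusted p = 0.0576) missed the threshold but was 1.06 without sham 1185 (adjusted p = 0.0194). *Pcolce* and *Pcolce2*, which speed the trimming of procollagen, rose by 0.70 ± 0.14 (SE, adjusted p = 0.0148) and 0.56 ± 0.12 (SE, adjusted p = 0.0248). *Plod2*, the lysyl hydroxylase that prepares crosslinks in the collagen telopeptide, rose by 0.44 ± 0.10 (SE, adjusted p = 0.0318) with no overlap.

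Small leucine-rich proteoglycans coat collagen fibrils, and 3 of 9 measured were called higher, or 5 without sham 1185. Beside *Fmod*, *Bgn* (biglycan) read 12.56, 12.30, 12.71 and 13.998 on the sham arrays and 14.09, 13.94, 13.81 and 13.89 on the MI arrays and rose by 1.04 ± 0.22 (SE, adjusted p = 0.0198). *Prelp* rose by 0.76 ± 0.16 (SE, adjusted p = 0.0209) with no overlap. *Aspn* changed by 0.59 ± 0.17 (adjusted p = 0.119) and by 0.74 without sham 1185 (adjusted p = 0.00939). Among 14 elastic fibre and microfibril genes 4 were called higher, and 9 without sham 1185. *Mfap5*, the relative of *Mfap4* in name and in microfibrils, read 11.23, 11.48, 11.48 and 12.74 on the sham arrays and 13.06, 13.14, 12.70 and 12.68 on the MI arrays and rose by 1.16 ± 0.20 (SE, adjusted p = 0.00469), with sham 1185 above 2 MI arrays. *Ltbp2* and *Ltbp3* are of the latent TGF-beta binding protein family; they rose by 1.88 ± 0.38 (SE, adjusted p = 0.0148) and 0.63 ± 0.14 (SE, adjusted p = 0.0248). *Ltbp2* on sham 1185, at 9.70, exceeded 3 of the MI arrays.

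Matricellular and adhesive proteins, which sit in the matrix and act on cells, gave 6 called of 15 measured and 10 without sham 1185, with a median change of 0.754. *Postn* (periostin), made by activated fibroblasts, read 11.04, 11.70, 11.21 and 13.51 on the sham arrays and 13.90, 13.71, 13.61 and 13.32 on the MI arrays. It averaged 11.87 ± 1.13 (SD, n = 4) on the sham arrays and 13.64 ± 0.24 (SD, n = 4) after MI, rose by 1.77 ± 0.31 (SE, adjusted p = 0.0047), or 3.41-fold, and by 2.32 without sham 1185 (adjusted p = 6.19e-09). Sham 1185 was above MI 1190 and at least 1.81 above each of the other shams. *Cilp* read 7.17, 8.20, 8.67 and 11.20 on the sham arrays and 10.55, 10.34, 11.10 and 10.53 on the MI arrays; it rose by 1.82 ± 0.44 (SE, adjusted p = 0.0436), and by 2.61 without sham 1185 (adjusted p = 1.09e-07). On this gene sham 1185 was the highest of the 8 arrays. *Thbs4*, a thrombospondin, rose by 1.05 ± 0.22 (SE, adjusted p = 0.0203), *Vcan*, the large proteoglycan versican, by 0.98 ± 0.20 (SE, adjusted p = 0.0158), and *Sparc*, which binds collagen, by 0.57 ± 0.13 (SE, adjusted p = 0.0305). *Fn1*, fibronectin, read 9.78, 10.59, 9.98 and 10.80 on the sham arrays and 11.18, 11.19, 10.98 and 10.81 on the MI arrays; MI and sham did not overlap, and its change of 0.75 ± 0.19 (SE, adjusted p = 0.0594) missed the threshold with all arrays and was 0.92 without sham 1185 (adjusted p = 0.00341). *Spp1*, osteopontin, was not among the genes that could be measured here.

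In the CCN family, secreted regulators of matrix and growth, 2 of 6 were called, and 3 without sham 1185. *Ccn2*, also known as connective tissue growth factor, read 12.96, 12.45, 12.46 and 12.70 on the sham arrays and 13.62, 13.65, 13.29 and 13.53 on the MI arrays and rose by 0.87 ± 0.13 (SE, adjusted p = 0.00182) and by 0.89 without sham 1185 (adjusted p = 3.66e-04). Sham 415, not 1185, was the highest sham. *Ccn5* read 7.75, 7.28, 7.81 and 8.67 on the sham arrays and 9.79, 9.48, 9.26 and 9.86 on the MI arrays and rose by 1.72 ± 0.28 (SE, adjusted p = 0.00324). *Ccn1* changed by 0.74 ± 0.22 (SE, adjusted p = 0.115), with no overlap, and by 0.80 without sham 1185 (adjusted p = 0.048). That is its brightest probe set: only 2 of its 4 kept probe sets had changes above 0, and they ran from -0.44 to 0.744. Of 17 matrix metalloproteinases and inhibitors 2 were called, and 3 without sham 1185: *Mmp2*, a gelatinase, rose by 0.60 ± 0.13 (SE, adjusted p = 0.0263), and *Timp1*, an inhibitor of such enzymes, by 1.16 ± 0.29 (SE, adjusted p = 0.0495). *Timp1* read 7.10, 7.30, 7.41 and 8.68 on the sham arrays and 9.05, 9.11, 8.36 and 8.64 on the MI arrays, and sham 1185 was above MI 1174 and MI 1190. *Timp2* changed by 0.39 ± 0.14 (SE, adjusted p = 0.208) and by 0.55 without sham 1185 (adjusted p = 0.0066).

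TGF-beta is the best known driver of scar formation, and 2 of 20 measured ligands, receptors and relatives were called, with and without sham 1185. *Tgfb2* read 9.22, 9.19, 8.79 and 10.22 on the sham arrays and 10.12, 10.35, 10.26 and 10.29 on the MI arrays and rose by 0.90 ± 0.19 (SE, adjusted p = 0.0206). *Tgfb3* read 8.56, 8.51, 8.74 and 9.30 on the sham arrays and 9.45, 9.64, 9.79 and 9.85 on the MI arrays and rose by 0.90 ± 0.20 (SE, adjusted p = 0.0248), with no overlap. The list's median change was 0.148, and outside the list the TGF-beta induced feedback gene *Pmepa1* rose by 0.83 ± 0.15 (SE, adjusted p = 0.00696) and *Smurf2*, a ubiquitin ligase of the pathway, by 0.37 ± 0.09 (SE, adjusted p = 0.0321). Secreted modulators of Wnt signalling gave 3 of 8, and 4 without sham 1185. *Sfrp2* read 7.24, 7.78, 6.21 and 8.95 on the sham arrays and 10.07, 9.51, 9.12 and 9.68 on the MI arrays and rose by 2.05 ± 0.36 (SE, adjusted p = 0.00489), or 4.15-fold. *Frzb* read 10.31, 10.24, 10.34 and 11.14 on the sham arrays and 11.36, 11.61, 11.15 and 11.31 on the MI arrays and rose by 0.85 ± 0.15 (SE, adjusted p = 0.0047), and *Sfrp1* by 0.92 ± 0.18 (SE, adjusted p = 0.0142). All 3 are decoy receptors that bind Wnt ligands, and none of the 3 overlapped between groups. *Dkk3* changed by 0.88 ± 0.23 (SE, adjusted p = 0.0747) and by 1.19 without sham 1185 (adjusted p = 4.69e-04).

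Fibroblast markers were called for 5 of 20 measured and 7 without sham 1185, with a median change of 0.292. *Fstl1* read 10.80, 11.22, 11.12 and 12.27 on the sham arrays and 12.55, 12.41, 12.47 and 12.04 on the MI arrays and rose by 1.01 ± 0.18 (SE, adjusted p = 0.00585). *Islr* rose by 0.80 ± 0.14 (SE, adjusted p = 0.00514), and *Pi16* by 1.33 ± 0.27 (SE, adjusted p = 0.0156); *Meox1*, a homeobox factor of activated cardiac fibroblasts, rose by 0.99 ± 0.22 (SE, adjusted p = 0.0248), with sham 1185 at 10.51 and the MI arrays averaging 10.53 ± 0.27 (SD, n = 4). The summed signal of the 7 fibroblast markers that define the cell type was 51100 to 77600 on sham and 67500 to 76900 on MI arrays, so the groups overlapped. Smooth muscle and myofibroblast genes were called for 0 of 10 measured, with all arrays and without sham 1185. Their median change was 0.0817. *Acta2*, the smooth muscle actin that marks myofibroblasts, read 13.48, 13.24, 13.73 and 13.03 on the sham arrays and 13.46, 13.68, 13.46 and 13.62 on the MI arrays and changed by 0.19 ± 0.13 (SE, adjusted p = 0.65).

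Outside the matrix lists several called genes encode proteins at the cell surface or in signalling. *Nox4*, an NADPH oxidase that makes hydrogen peroxide, read 7.43, 7.27, 6.83 and 8.73 on the sham arrays and 9.32, 9.16, 9.16 and 9.58 on the MI arrays and rose by 1.74 ± 0.33 (SE, adjusted p = 0.00747), or 3.34-fold. It was the 1 member called of 24 measured NADPH oxidase and antioxidant genes, and the groups did not overlap. Without sham 1185, 4 of the 24 were higher and 1 lower. Beside *Nox4* these were *Sod3*, the extracellular superoxide dismutase, at 0.97, the glutathione peroxidases *Gpx3* and *Gpx7* at 0.43 and 0.57, and *Gstk1*, a glutathione transferase, at -0.61. *Scg2*, a granin of secretory vesicles, read 4.54, 4.18, 5.69 and 6.70 on the sham arrays and 8.04, 7.81, 7.61 and 8.10 on the MI arrays and rose by 2.61 ± 0.57 (SE, adjusted p = 0.0235), or 6.11-fold. *Krt18*, a keratin of simple epithelia, read 6.79, 6.45, 6.14 and 7.67 on the sham arrays and 8.41, 8.55, 8.87 and 8.10 on the MI arrays and rose by 1.72 ± 0.29 (SE, adjusted p = 0.0047); it was the 1 called of 13 measured epicardial and mesothelial genes, and 2 were without sham 1185. The integrin subunits *Itgav* and *Itgb5*, which pair as a vitronectin receptor, rose by 0.54 ± 0.10 (SE, adjusted p = 0.00909) and 0.48 ± 0.10 (SE, adjusted p = 0.0134). *Hbegf*, a ligand of the epidermal growth factor receptor, rose by 0.69 ± 0.16 (SE, adjusted p = 0.0348). Of the insulin, IGF1 and PI3K pathway, 2 of 23 were called: the IGF-binding proteins *Igfbp4* (0.50 ± 0.11 (SE, adjusted p = 0.0203)) and *Igfbp7* (0.53 ± 0.12 (SE, adjusted p = 0.0263)). Without sham 1185, 4 were higher and 1 lower: *Igfbp5* (0.62) and *Igfbp6* joined the higher, and *Eif4ebp1*, a repressor of translation, was at -0.31. For *Igfbp7* the probe sets of the gene disagreed in sign. *Ckb*, the brain-type creatine kinase, rose by 0.67 ± 0.16 (SE, adjusted p = 0.0328), and *Nupr1*, a stress-response regulator, by 1.15 ± 0.27 (SE, adjusted p = 0.0348). *Mlana*, best known from melanocytes, read 4.35, 4.26, 4.05 and 4.94 on the sham arrays and 7.12, 7.55, 7.23 and 7.06 on the MI arrays and rose by 2.84 ± 0.60 (SE, adjusted p = 0.0203), or 7.17-fold. It was dim on all 4 shams, sham 1185 included, and the lowest MI array lay 2.12 above the highest sham. *Ccdc136* read 6.65, 4.97, 4.55 and 4.72 on the sham arrays and 7.16, 7.32, 6.86 and 7.54 on the MI arrays and rose by 1.996 ± 0.44 (SE, adjusted p = 0.0248); both are dim genes whose values lie near the low end of the scale. *Itgav*, *Hbegf*, *Pmepa1*, *Smurf2*, *Ckb*, *Nupr1*, *Igfbp5* and *Eif4ebp1* were named after their values had been seen.

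Natriuretic peptides are the classic wall-stress hormones of the heart. *Nppa*, atrial natriuretic peptide, read 14.27, 13.54, 13.47 and 15.61 on the sham arrays and 15.46, 15.48, 15.57 and 15.51 on the MI arrays. It averaged 14.22 ± 0.99 (SD, n = 4) on the sham arrays and 15.50 ± 0.05 (SD, n = 4) after MI and rose by 1.28 ± 0.27 (SE, adjusted p = 0.0209), or 2.43-fold; without sham 1185 the change was 1.74 (adjusted p = 4.50e-07). Sham 1185 was the highest of all 8 arrays, while the 4 MI arrays lay within 0.11 of each other. *Nppb*, the B-type peptide, read 15.02, 14.91, 14.56 and 15.07 on the sham arrays and 15.08, 15.30, 15.31 and 15.13 on the MI arrays; the change was 0.32 ± 0.11 (SE, adjusted p = 0.226) and 0.38 without sham 1185 (adjusted p = 0.0708), so it was not called although the groups did not overlap. *Corin*, the protease that activates these peptides, read 13.12, 13.21, 13.12 and 12.52 on the sham arrays and 12.31, 12.57, 12.79 and 12.67 on the MI arrays; it changed by -0.41 ± 0.14 (SE, adjusted p = 0.201) and by -0.56 without sham 1185 (adjusted p = 0.00904). Of the 16 measured fetal and wall-stress genes 0 were called with all arrays and 5 higher without sham 1185. *Acta1*, skeletal actin, read 14.15, 14.17, 14.15 and 15.32 on the sham arrays and 14.96, 14.88, 14.99 and 14.99 on the MI arrays, a change of 0.50 ± 0.17 (SE, adjusted p = 0.194) and of 0.79 without sham 1185 (adjusted p = 4.17e-05). Shams 415, 416 and 1184 lay within 0.02 of each other, and sham 1185 was the highest of the 8 arrays. *Myh7*, the slow myosin heavy chain, read 13.96, 14.24, 12.62 and 15.14 on the sham arrays and 14.52, 14.52, 14.46 and 14.51 on the MI arrays. It changed by 0.51 ± 0.34 (SE, adjusted p = 0.609) and by 0.90 without sham 1185 (adjusted p = 0.103). On this gene the shams spanned 2.51 and the MI arrays 0.06. Sham 1184 was the lowest array for *Myh7* and sham 1185 the highest. *Rcan1*, a calcineurin target, changed by 0.86 ± 0.22 (SE, adjusted p = 0.0575) and by 1.13 without sham 1185 (adjusted p = 4.67e-04).

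Atrial muscle is marked by its own light chains and peptides. Of 12 measured atrial genes 2 were called, *Nppa* and *Sln*, and 5 without sham 1185. *Sln*, sarcolipin, a small inhibitor of the calcium pump, read 8.67, 7.69, 9.26 and 10.78 on the sham arrays and 10.90, 12.15, 10.62 and 11.47 on the MI arrays and rose by 2.18 ± 0.52 (SE, adjusted p = 0.0384), or 4.54-fold. Sham 1185 was above MI 1174. *Myl7*, the atrial myosin light chain, read 9.82, 8.92, 10.36 and 11.05 on the sham arrays and 11.07, 12.15, 11.11 and 12.04 on the MI arrays; the groups did not overlap, and the change of 1.56 ± 0.41 (SE, adjusted p = 0.0689) missed the threshold and was 1.89 without sham 1185 (adjusted p = 0.00571). *Myl4*, its atrial essential light chain partner, changed by 1.18 ± 0.32 (SE, adjusted p = 0.086) and by 1.55 without sham 1185 (adjusted p = 0.00204). The list median on each array was -0.368 to -0.318 on shams 415, 416 and 1184, 0.211 on sham 1185 and 0.18 to 0.533 on the MI arrays. In the transgenic hearts *Sln* changed by -0.40 in dnPI3K and -0.93 in caPI3K hearts and *Myl7* by -1.20 and -0.94, while *Nppa* changed by -0.07 and 1.32 and *Dkk3*, also of this list, by 1.48 and 0.62. The difference of these changes from Ntg was not called for *Sln* (adjusted p = 0.504 and 0.464) or *Myl7* (adjusted p = 0.352 and 0.464). How much atrium each extract held was not recorded in the labels, and its part in the result was not tested.

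**Figure D3:**
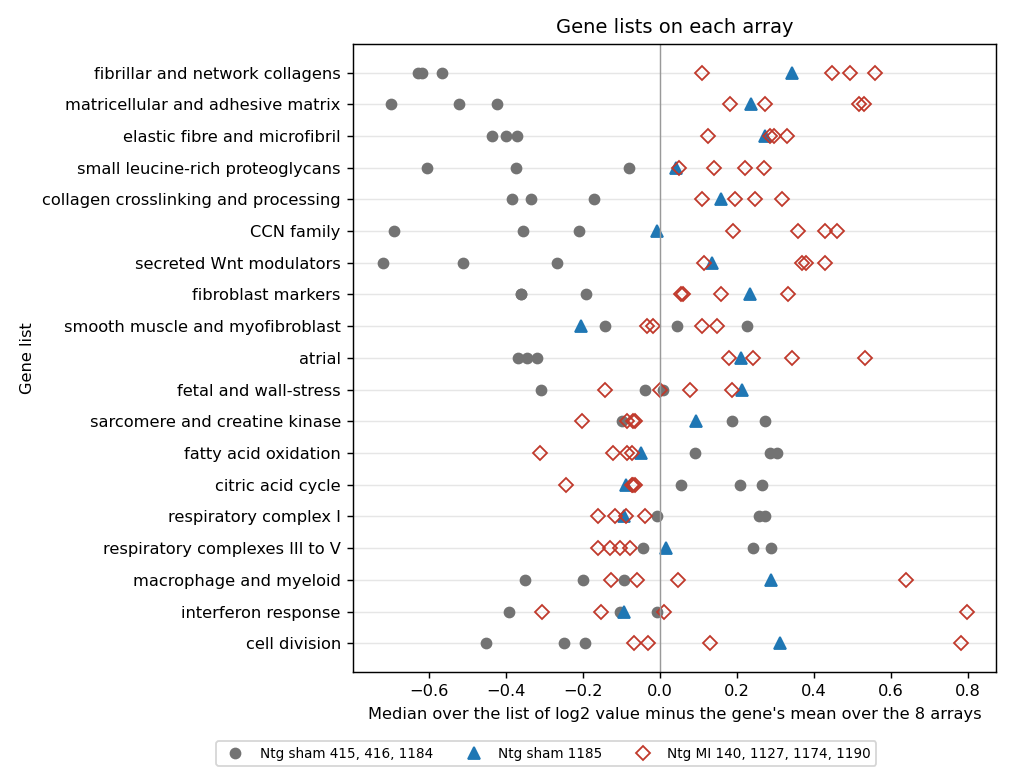
For 19 gene lists, the median over measured members of the log2 value minus the gene's mean over the 8 Ntg arrays, 1 point per array (grey circles shams 415, 416 and 1184, blue triangles sham 1185, open red diamonds MI). Sham 1185 sits with the MI arrays on the collagen, matricellular and atrial lists, shams 415 and 416 stand above the other arrays on the mitochondrial lists, and MI 140 stands at 0.64 to 0.798 on the macrophage, interferon and cell division lists.

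Few genes fell with all arrays. Of the 14 called lower, the largest changes without overlap were those of *Ap4m1*, a subunit of an adaptor complex of vesicle transport, and *4930448K20Rik*. *Ap4m1* read 6.88, 7.55, 7.39 and 7.87 on the sham arrays and 4.68, 6.60, 5.35 and 5.07 on the MI arrays, a change of -1.996 ± 0.45 (SE, adjusted p = 0.0269); it is a dim gene, and MI 1127 lay well above the other MI arrays. *4930448K20Rik* read 6.63, 6.14, 6.53 and 6.53 on the sham arrays and 5.18, 4.42, 4.31 and 4.40 on the MI arrays and fell by 1.88 (adjusted p = 0.0248). *Slc46a3*, a lysosomal transporter, read 10.48, 10.20, 10.34 and 9.88 on the sham arrays and 9.67, 9.41, 9.50 and 9.33 on the MI arrays, a change of -0.75 ± 0.14 (SE, adjusted p = 0.00747); it had the smallest p of the lower genes. *Npc1*, the lysosomal cholesterol transporter, changed by -0.66 ± 0.16 (SE, adjusted p = 0.0452), and *Gpcpd1*, which breaks down glycerophosphocholine, by -0.66 ± 0.15 (SE, adjusted p = 0.0262). *Aldh9a1*, an aldehyde dehydrogenase of carnitine synthesis, read 10.37, 10.36, 10.37 and 10.44 on the sham arrays and 9.98, 9.96, 9.81 and 9.77 on the MI arrays, a change of -0.50 ± 0.12 (SE, adjusted p = 0.0362). Its shams lay within 0.08 of each other, sham 1185 included, and no MI array reached them. The histone genes *H2ac19* and *H2az2* changed by -0.64 ± 0.13 (SE, adjusted p = 0.0191) and -0.32 ± 0.07 (SE, adjusted p = 0.0319), *Ggct* by -0.47 ± 0.10 (SE, adjusted p = 0.0248), *Magix* by -0.53 ± 0.13 (SE, adjusted p = 0.0453) and *Atcayos* by -0.63 ± 0.16 (SE, adjusted p = 0.0478). *Npc1* and *Gpcpd1* were named after their values had been seen.

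Of the 27 measured genes of fatty acid oxidation 2 were called lower, and 15 without sham 1185. *Ech1*, an isomerase that lets unsaturated fatty acids enter beta-oxidation, read 15.28, 15.29, 14.92 and 14.72 on the sham arrays and 14.31, 14.70, 14.62 and 14.61 on the MI arrays, a change of -0.49 ± 0.11 (SE, adjusted p = 0.0348) and of -0.60 without sham 1185 (adjusted p = 0.0013). *Decr1*, the reductase of the same side path, read 14.04, 14.000, 13.83 and 13.44 on the sham arrays and 13.13, 13.46, 13.46 and 13.32 on the MI arrays, a change of -0.49 ± 0.11 (SE, adjusted p = 0.0348) and of -0.62 without sham 1185 (adjusted p = 4.88e-04). *Acadm*, the medium-chain acyl-CoA dehydrogenase, read 15.49, 15.44, 15.12 and 15.04 on the sham arrays and 14.81, 14.97, 14.98 and 15.003 on the MI arrays; its change of -0.33 ± 0.09 (SE, adjusted p = 0.0805) missed the threshold and was -0.41 without sham 1185 (adjusted p = 0.00489). For all 3 the values on shams 415 and 416 were the highest, with sham 1184 between them and the MI arrays. Sham 1185 was above every MI array for *Ech1* and *Acadm* and below 2 of them for *Decr1*. *Etfa*, which passes electrons from these enzymes to the respiratory chain, changed by -0.35 ± 0.09 (SE, adjusted p = 0.0596) and by -0.42 without sham 1185 (adjusted p = 0.00338). Their coactivator *Ppargc1a* read 11.58, 11.31, 11.80 and 10.73 on the sham arrays and 10.71, 11.23, 10.96 and 10.998 on the MI arrays. It changed by -0.38 ± 0.19 (SE, adjusted p = 0.443) and by -0.59 without sham 1185 (adjusted p = 0.0624). *Pdk4*, the kinase that spares glucose, read 13.31, 11.95, 13.53 and 12.65 on the sham arrays and 12.06, 13.71, 12.29 and 12.13 on the MI arrays. It changed by -0.31 ± 0.41 (SE, adjusted p = 0.848) and by -0.38 without sham 1185 (adjusted p = 0.753). Both groups spread widely on *Pdk4*, with MI 1127 far above the other MI arrays.

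The same shape held for other mitochondrial genes: small changes below 0, few or no calls, and a marked dependence on which shams and which scaling were used. The 4 lists of fatty acid oxidation, citric acid cycle and respiratory chain hold 116 measured genes, of which 115 changes were below 0, with a median of -0.235 and 2 called lower. Without sham 1185, 55 were called lower and the median was -0.283: 9 of 18 for the citric acid cycle, 16 of 34 for respiratory complex I and 15 of 37 for complexes III to V, beside the 15 of 27 above. The median of these 116 genes on each array was 0.282 and 0.258 on shams 415 and 416, -0.00215 on sham 1184, -0.0491 on sham 1185 and -0.179 to -0.0636 on the MI arrays. Shams 415 and 416 are also the arrays with the brightest upper end. Quantile normalization, which makes the arrays' distributions alike, moved the median with all arrays from -0.235 to -0.0652, with 1 call. Without sham 1185 it moved the median from -0.283 to -0.0773 and the calls from 55 to 19. With all arrays the quantile-normalized medians were -0.205 for fatty acid oxidation, -0.0446 for complex I and -0.042 for complexes III to V. Without sham 1185 they were -0.256 with 10 calls, -0.0701 with 3 calls and -0.049 with 2 calls. Within array numbers of 1000 and above the 116 genes had a median of -0.0645 and 0 calls, and -0.0816 and 0 calls without sham 1185. Within array numbers under 1000, where shams 415 and 416 are set against MI 140 alone, the median was -0.632 for fatty acid oxidation, -0.489 for the citric acid cycle, -0.417 for complex I and -0.444 for complexes III to V. A term for the number range gave a median of -0.203 and 2 calls with all arrays, and -0.244 and 43 calls without sham 1185. The matrix lists, with a median of 0.588 and 30 called as deposited, moved little under quantile normalization, to 0.568 and 29 called. A term for the number range gave them 0.526 and 26 called. Within array numbers of 1000 and above their median was 0.39 with 0 called. Whether the lower mitochondrial values belong to infarction or to shams 415 and 416 cannot be told apart from these arrays.

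**Figure D4:**
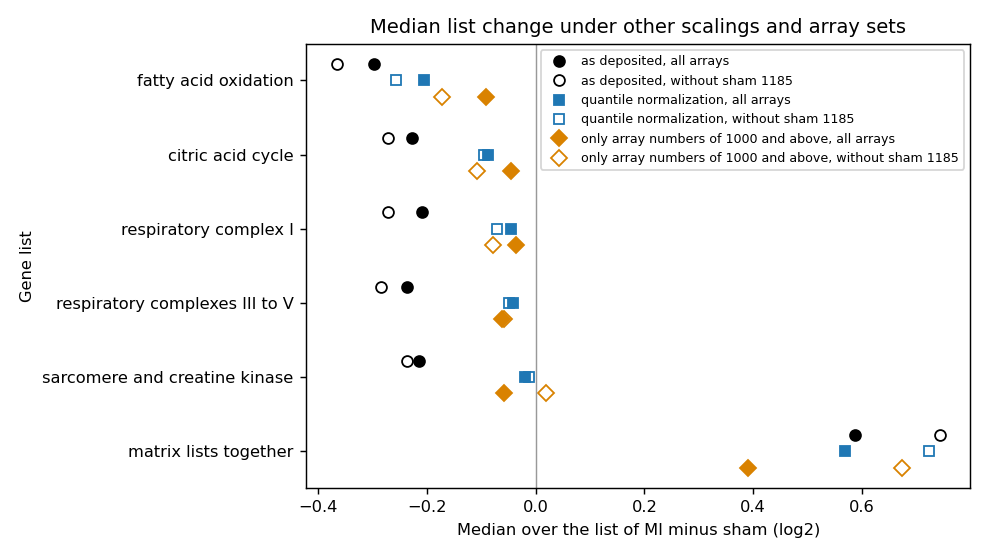
Median change after MI (log2) of 4 mitochondrial lists, the sarcomere list and the 7 matrix lists together, as deposited, after quantile normalization and within array numbers of 1000 and above; filled symbols use all arrays and open symbols leave out sham 1185. The respiratory and sarcomere lists lie near 0 after quantile normalization, while the matrix lists stay at 0.39 or above under each setting drawn.

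Contractile and calcium-handling genes gave no call with all arrays. Of 19 sarcomere and creatine kinase genes 0 were called, with a median change of -0.214 that became -0.019 under quantile normalization. *Myh6*, the fast myosin heavy chain of adult mouse heart, read 16.25, 16.10, 15.82 and 15.91 on the sham arrays and 15.71, 15.85, 15.87 and 15.80 on the MI arrays. It changed by -0.21 ± 0.09 (SE, adjusted p = 0.287) and by -0.25 without sham 1185 (adjusted p = 0.128). *Atp2a2*, the calcium pump SERCA2, read 15.92, 15.75, 15.55 and 15.72 on the sham arrays and 15.42, 15.48, 15.53 and 15.53 on the MI arrays, a change of -0.25 ± 0.08 (SE, adjusted p = 0.179), and *Pln*, phospholamban, its inhibitor, read 16.06, 15.96, 15.69 and 15.77 on the sham arrays and 15.58, 15.64, 15.61 and 15.66 on the MI arrays, a change of -0.25 ± 0.08 (SE, adjusted p = 0.181). Neither gene's groups overlapped, and neither was called without sham 1185 (adjusted p = 0.105 and 0.0606). Of 15 calcium cycling genes, 1 was higher and 2 lower without sham 1185: the exchanger *Slc8a1* at 0.61 without sham 1185 (adjusted p = 0.0202), *Trdn* at -0.42 (adjusted p = 0.0215) and *Hrc* at -0.35 (adjusted p = 0.0318). Of 18 potassium and sodium channel genes 2 were lower without it, *Abcc9*, the sulphonylurea receptor of muscle, at -0.40 (adjusted p = 0.00889) and *Kcnj3*, a channel opened by vagal input, at -0.73 (adjusted p = 0.0313). *Slc2a1*, the basal glucose transporter, read 10.32, 10.48, 10.31 and 10.19 on the sham arrays and 10.17, 10.38, 10.38 and 10.50 on the MI arrays, a change of 0.03 ± 0.12 (SE, adjusted p = 0.965).

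Immune genes were not called as a group. Of 26 macrophage and myeloid genes 0 were called, with all arrays and without sham 1185, although 23 changes were above 0 and the median was 0.266. MI 140 stood at 0.64 against -0.127 to 0.0476 on the other MI arrays, and without MI 140 the list's median change was 0.039. MI 140 was also highest on the interferon list, at 0.798 against -0.306 to 0.0115, on the lymphocyte list, at 0.66 against -0.568 to -0.121, and on the cell division list, at 0.781 against -0.0664 to 0.131. The lymphocyte markers were dim, with a summed signal of 162 to 373 on sham and 76.3 to 443 on MI arrays. Of 17 cell division genes 3 were called without sham 1185 and 1 with all arrays, the cyclin *Ccnd2*, which rose by 0.48 ± 0.11 (SE, adjusted p = 0.0248); for *Ccnd2* the probe sets of the gene disagreed in sign. *Cdk1* and *Mki67*, which are on in dividing cells, changed by 1.28 ± 0.45 (SE, adjusted p = 0.208) and 1.05 ± 0.38 (SE, adjusted p = 0.23), and by 1.75 without sham 1185 (adjusted p = 0.0143) and 1.39 without sham 1185 (adjusted p = 0.0345). *Mki67* read 6.34, 6.26, 5.56 and 7.39 on the sham arrays and 8.48, 6.85, 7.18 and 7.26 on the MI arrays. Endothelial genes were called for 0 of 20, with and without sham 1185, with a median change of -0.0508.

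The remaining lists gave few calls. With all arrays 0 were called of 18 PGC-1, PPAR and ERR regulators, 18 glucose uptake and pyruvate genes, 18 chemokine, cytokine and complement genes, 19 interferon, 19 immediate early, 19 heat shock, 16 circadian clock, 10 lymphocyte, 8 pericyte, 8 skeletal muscle, 6 adipocyte, 5 lung and 3 red blood cell genes. Without sham 1185 the glucose list had 1 higher and 1 lower: *Hk1*, the hexokinase of most tissues, at 0.33 without sham 1185 (adjusted p = 0.013), and *Mpc1*, a subunit of the mitochondrial pyruvate carrier, at -0.24 without sham 1185 (adjusted p = 0.0414). The pericyte list also had 1 of each, the chemokine and interferon lists 1 higher each, the heat shock list 1 lower and the adipocyte list 2 lower. *Dio2* was the 1 called of 6 measured thyroid hormone genes, and *Scg2* the 1 called of 6 granins and neuropeptides, with and without sham 1185. *Thra*, a receptor of thyroid hormone, changed by -0.22 ± 0.11 (SE, adjusted p = 0.434).

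The 556 genes called only when sham 1185 was left out were 316 higher and 240 lower. They were chosen by leaving out that array, so its place toward the MI arrays on them follows from the choice, and its values are given as a description. *Fxyd6*, a regulator of the sodium pump, read 9.56, 9.36, 9.61 and 10.99 on the sham arrays and 10.82, 10.99, 10.63 and 10.40 on the MI arrays, a change of 0.83 ± 0.23 (SE, adjusted p = 0.101) and of 1.20 without sham 1185 (adjusted p = 4.75e-05). *Igfbp6*, an IGF-binding protein, read 9.53, 9.75, 9.62 and 10.95 on the sham arrays and 10.89, 10.85, 10.24 and 10.91 on the MI arrays, a change of 0.76 ± 0.22 (SE, adjusted p = 0.104) and of 1.09 without sham 1185 (adjusted p = 1.28e-04). In both, 3 shams lay close together and sham 1185 was the highest of the 8 arrays. Further genes of the same kind, by smallest p, were *Col5a1* (0.83 without sham 1185), *Ccdc80* (0.79), *Dap* (0.84), *Col6a2* (0.96), *Rab31* (0.89), *Fbln2* (0.74) and *Pfkp* (0.83), with *Acta1* as described. *Ttll1*, a tubulin polyglutamylase subunit, read 13.37, 13.72, 13.38 and 11.87 on the sham arrays and 12.42, 12.66, 12.68 and 12.63 on the MI arrays, a change of -0.49 ± 0.22 (SE, adjusted p = 0.376) and of -0.89 without sham 1185 (adjusted p = 3.90e-05). *Nampt*, the rate-limiting enzyme of NAD salvage, read 13.004, 13.05, 12.82 and 12.35 on the sham arrays and 12.31, 12.26, 12.35 and 12.42 on the MI arrays, a change of -0.48 ± 0.12 (SE, adjusted p = 0.0577) and of -0.63 without sham 1185 (adjusted p = 3.93e-04). On *Ttll1* sham 1185 was the lowest of the 8 arrays, and on *Nampt* it was within the MI range. *Fdft1*, squalene synthase, changed by -0.56 without sham 1185 and *Dgat2*, which makes triglyceride, by -0.73; the others of smallest p were *Ift81* (-0.93), *Cobll1* (-0.85), *Cabcoco1* (-0.89), *Cpeb3* (-0.64), *Gstk1* (-0.61) and *Adhfe1* (-0.70).

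The Ntg response was also set beside the MI response of the transgenic hearts, which come from other arrays. There 9.42 percent of genes were called in dnPI3K and 1.11 percent in caPI3K hearts. Of the 101 genes called higher in Ntg hearts, 97 changed in the same direction in dnPI3K hearts, where 84 were called, and 97 in caPI3K hearts, where 52 were called. Over all genes whose Ntg change was above 0, 64 and 58.1 percent had the same direction there, and 7.92 and 1.71 percent were called in it. Of the 14 called lower, 12 had the same direction in dnPI3K hearts (10 called) and 11 in caPI3K hearts (0 called). Over all genes whose Ntg change was below 0, 60.7 and 58.6 percent had the same direction there, and 9.57 and 0.413 percent were called in it. The genes called only without sham 1185 were mostly of the same direction there: 296 of the 316 higher genes in dnPI3K hearts (168 called) and 267 in caPI3K hearts (28 called), and 231 of the 240 lower genes in dnPI3K hearts (178 called) and 210 in caPI3K hearts (2 called). Without sham 1185, over all genes whose change was above 0, 65.6 percent had that direction in dnPI3K hearts (8.04 percent called) and 58 percent in caPI3K hearts (1.7 percent called). Over those below 0 it was 62.3 percent (9.64 percent called) and 58.4 percent (0.439 percent called). *Mfap4* changed by 4.12 in Ntg, 4.59 in dnPI3K and 4.69 in caPI3K hearts, and *Scg2* by 2.61, 2.67 and 2.87. *Nppa* changed by 1.28, -0.07 and 1.32. *Mlana* changed by 2.84, 1.01 and -0.01, and *Ap4m1* by -1.996, 0.45 and -0.49. Tests of the difference between the MI effects called 0 genes for dnPI3K minus Ntg and 0 for caPI3K minus Ntg in limma, with 1122 and 815 genes at an unadjusted p below 0.05 (7.6 and 5.52 percent). Leaving out sham 1185 or sham 416 gave 1 call for dnPI3K minus Ntg. With all arrays, no gene's response was therefore shown to differ between Ntg and transgenic hearts, *Mlana* and *Nppa* included. That statement does not cover the fits without sham 1185 or sham 416, each with 1 call. Without sham 1185 the Ntg change of *Nppa* was 1.74.

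**Figure D5:**
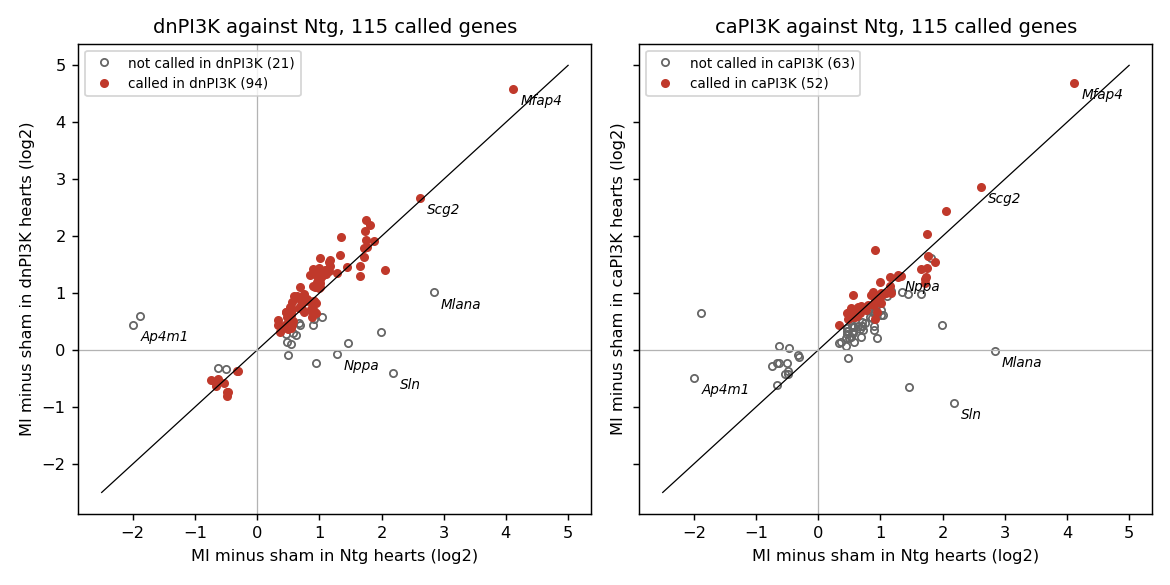
Change after MI (log2) of the 115 genes called in Ntg hearts (x axes) against the change in dnPI3K (left) and caPI3K hearts (right), with the line of equality; filled red points were also called in that genotype, 94 in dnPI3K and 52 in caPI3K. Most points follow the line, and *Mlana* and *Sln* lie far below it in both panels.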

How the data were processed

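Of 24 Affymetrix arrays of mouse hearts in 6 groups of 4, the 8 Ntg arrays are described. The deposited values are signal intensities made with MAS5, per the submitters' processing notes; its version and settings are stated nowhere in the labels. On every array the mean after trimming 2 percent at each end was 500.003 to 500.004, so no further normalization was applied. Median signals of the 8 arrays were 105 to 115, and 4 arrays a group limit the precision. The 64 control probe sets among 45101 were dropped; of the rest 34945 name 1 gene, 932 several and 9160 none in the platform annotation; 34741 gene IDs were found in RefSeq (GRCm38.p6). Probe sets above their array's 40th percentile on at least 4 of 24 arrays were kept (33061), and the probe set with the highest mean stood for a gene (14763 genes, 6946 with several). The pseudocount of 11.2, the median signal divided by 10, compresses changes of dim genes.

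A limma 3.58.1 model (R 4.3.3) with 6 group means and an intensity trend, 18 residual degrees of freedom, gave changes and Benjamini-Hochberg adjusted p-values. All 24 arrays share its estimate of the spread. The script was tested on simulated data. Named genes are those of a preset list of genes known in infarction, the 10 largest changes without overlap in each direction, up to 4 of smallest p in each list with a call, the 10 of smallest p in each direction called only without sham 1185, and up to 15 called in each leave-one-out fit. Other genes described were not chosen by these rules, and only some are marked in the text. Those not marked include *Cilp*, *Sparc*, *Col4a1*, *Col14a1*, *Loxl3*, *Meox1*, *Itgb5*, *Rcan1*, *Myl4*, *Acta2*, *Slc8a1*, *Trdn*, *Hrc*, *Abcc9*, *Kcnj3*, *Hk1* and *Mpc1*. The 42 lists hold 722 genes from general knowledge of heart biology, of which 640 were measured, and some genes are in several lists. Members, lists and rules were chosen with earlier results of these data known. Alternatives were other scaling, pseudocounts, filters, probe set summaries, models, array number ranges and leaving out each array. Figures used matplotlib 3.10.9 under Python 3.11.15.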

Additional observations from a re-analysis of the deposited data

Results flagged for a closer look

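A sample was singled out when its gap to the nearest of the other 3 arrays of its group was too large a share of the group's range by Dixon's test for 4 values. Of 164 groups of values examined, 15 passed, and chance alone singles out about 1 in 20 of unrelated groups. The genes and lists were chosen with earlier results of these data known, and some flagged genes are members of flagged lists. The 15 can therefore not be weighed against that rate. Values are log2(signal + 11.2) for genes and medians of values centred on the 8 arrays for lists.

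Sham 1185 was the far array in 9 of the 15. It stood above the other shams on *Acta1* at 15.32, *Col1a2* at 13.06, *Mfap4* at 9.205, *Mfap5* at 12.74 and *Frzb* at 11.14. It also stood above them on the lists of fibrillar and network collagens at 0.343, elastic fibre and microfibril genes at 0.272, atrial genes at 0.211 and thyroid hormone genes at 0.201.

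MI 140 was the far array in 5. It was the lowest MI array on *Acadm* at 14.81 and the highest on *Ecrg4* at 11.65. It was the lowest on the lists of sarcomere and creatine kinase genes at -0.202, citric acid cycle genes at -0.244 and glucose uptake genes at -0.356. MI 1127 was the highest MI array on *Pdk4* at 13.71.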

How the results depend on the processing

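The 115 calls with all arrays and the 671 without sham 1185 became 118 and 602 under quantile normalization, 111 and 665 with a pseudocount of 1, 120 and 689 with a pseudocount equal to the median signal, 111 and 582 with no filter, 140 and 792 with a filter at the 60th percentile and 102 and 593 once the number range (under 1000 or not) was a term of the model. Larger moves came from averaging all probe sets of a gene (63 and 496), fitting only the Ntg arrays (10 and 437, with 6 and 5 residual degrees of freedom) and dropping the intensity trend (30 and 462). Only array numbers under 1000 gave 195, with a single MI array, and only those of 1000 and above gave 1, or 136 without sham 1185. Leaving out each array in turn gave 25 to 671 calls, the highest without sham 1185, and 0 to 1 for the difference between the dnPI3K and Ntg responses. The cause of these moves was not tested. Of 120 named genes followed through the 19 alternatives (112 of them under the 60th percentile filter), no called change took the opposite sign. Many were named for a large change or small p in these data, which favours a kept sign. Of the 60 called among them, 60 lost the call within array numbers of 1000 and above. With only the Ntg arrays 52 lost it, and without the intensity trend 37. Leaving out 1 array other than sham 1185 lost 20 to 40. Of the 70 genes named by the stated rule with several kept probe sets, 59 had changes of 1 sign in all of them; among called ones it was 33 of 35. No paired analysis was possible because the compared groups share no replicate number. Dim genes near the low end of the scale have changes limited by signal over background.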
